A study of Sus scrofa with 5 samples.

Results

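The muscle miRNAs miR-1, miR-133a, miR-133b, miR-206, miR-208b and miR-499 were followed through pig blastocysts, stem cells and fibroblasts. Members were taken by name from the table of reported miRNAs, with or without an arm ending. This gave 8 mature miRNAs in 10 rows (a row is a mature miRNA paired with a precursor), out of 411 mature names in 493 rows. All 8 had a read in at least 1 library, as did 327 of the 411 names. Small RNA was sequenced from 5 libraries. BL_1 and BL_2 were pools of day 7 parthenogenetic blastocysts, embryos that developed from oocytes without fertilization. ES-like cells were a pluripotent line grown with stem cell factor and bFGF on mitomycin-C-treated mouse embryonic fibroblasts. PEBs were embryoid bodies that formed in hanging drops when these ES-like cells were kept without the cytokines. PFFs were fibroblasts cultured from early fetuses after removal of head, limbs and internal organs. Fetal bovine serum was present in all cultures, for embryos from day 4 only. Only BLs had replicates (2 libraries), and any difference among the other 3 cell types, with 1 library each, had no replicate check.

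As background, miR-1 and miR-133a are made from common transcripts in heart and skeletal muscle, where serum response factor, MEF2 and, in skeletal muscle, MyoD drive them. miR-1 is known to promote differentiation of myoblasts and miR-133 their proliferation. miR-206 and miR-133b form a second pair that is largely restricted to skeletal muscle, and miR-206 has the same seed as miR-1. miR-208b and miR-499 lie in introns of myosin heavy chain genes and act in the choice between slow and fast fibres. In the RefSeq gene table of the later assembly Sscrofa11.1, MIR1 and MIR133A-1 were neighbours, as were MIR206 and MIR133B. MIR133A-2 lay within MIB1, MIR208B within MYH7 (the slow myosin gene) and MIR499 within MYH7B. All 7 precursors of the members were found in it, and no coordinates are given because the reads were aligned to Sscrofa10.2.

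BL_1 was the shallowest library, with 113743 mature miRNA reads, against 27071931 in PFFs, 15849954 in PEBs, 6372500 in ES-like cells and 2782150 in BL_2. A summary sheet of the study gives the totals of ES-like cells and PFFs exchanged, and the columns were used here as the count table names them. Levels are given as RPM, the reads of a miRNA per 1000000 mature reads of its library. The totals are sums over all precursor rows, so reads counted at more than 1 row raise them, by amounts that differ between libraries. With the largest row of each miRNA alone, miR-1 would stand at 665 RPM in PEBs instead of 503, and at 1028 in PFFs instead of 898. 5 miRNAs of pluripotent cells summed to 325172 RPM in BL_1 and 296564 in BL_2, mostly ssc-miR-371-5p, against 336 in PFFs, 13031 in PEBs and 51921 in ES-like cells, where ssc-miR-363 led. 7 mesenchymal miRNAs, led by ssc-miR-21 in every library, summed to 705011 RPM in PFFs, 320488 in PEBs, 212864 in ES-like cells and at most 70199 in BLs. Reads were summed over precursor rows, which raises some markers if the same reads were counted at several rows. ssc-miR-363 had 262914 reads in ES-like cells, against 131457 in its largest row. The mesenchymal ssc-miR-199a-3p had 1421725 in PFFs, against 481175. The single liver marker, ssc-miR-122, stood at 101004 RPM in ES-like cells and 54096 in PEBs, against 4.14 in PFFs.

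miR-1 was the member with the most reads in 4 of the 5 libraries, BL_1, BL_2, PEBs and PFFs. Reads numbered 97 in BL_1, 5476 in BL_2, 24321 in PFFs, 7969 in PEBs and 988 in ES-like cells. Its level was 853 RPM in BL_1 (95% Wilson interval 699 to 1040), 1968 in BL_2 (1917 to 2021), 155 in ES-like cells (146 to 165), 503 in PEBs (492 to 514) and 898 in PFFs (887 to 910). BL_2 was thus highest and ES-like cells lowest, while PFFs lay within the interval of BL_1. Since amplified reads are not independent molecules, all intervals and limits given here cover counting error only. miR-1 stood in place 39 of 275 detected miRNAs in BL_2, 51 of 315 in PFFs, 56 of 215 in BL_1, 85 of 306 in PEBs and 142 of 309 in ES-like cells. Whether more cells held miR-1 or each cell held more of it cannot be told apart in pooled RNA.

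miR-133a-3p, the main strand of the partner of miR-1, followed the same order apart from BL_1 and PFFs. Reads numbered 20 in BL_1, 1252 in BL_2, 3218 in PFFs, 422 in PEBs and 80 in ES-like cells. This was 176 RPM in BL_1 (114 to 272), 450 in BL_2 (426 to 476), 12.6 in ES-like cells (10.1 to 15.6), 26.6 in PEBs (24.2 to 29.3) and 119 in PFFs (115 to 123). Both BL libraries were higher than ES-like cells and PEBs, and the interval of BL_1 included that of PFFs. The reads were a sum of 2 precursor rows with equal counts in every library, 10, 626, 40, 211 and 1609 in each. If the same reads were counted at both precursors, the levels are too high by a factor of 2 and the intervals too narrow. At the same library totals, ratios of this miRNA between libraries would not be changed by it. Of 58 detected miRNAs with more than 1 precursor row, 27 had equal counts in this way.

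The opposite strand, miR-133a-5p, was read far less often. Its 2 precursor rows were unequal, with 147 and 99 reads in PFFs, 22 and 15 in PEBs, 2 and 1 in ES-like cells and 6 and 6 in BL_2. In RPM it stood at 9.09 in PFFs (8.02 to 10.3), 4.31 in BL_2 (2.47 to 7.54), 2.33 in PEBs (1.69 to 3.22) and 0.471 in ES-like cells (0.160 to 1.38). BL_1 had no read, which allows a level of up to 26.4 RPM (a limit of 3 counts), above the level in every other library. PFFs were highest, and PEBs and BL_2 overlapped in their intervals.

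miR-206, the skeletal muscle relative of miR-1, had a different pattern. It was without a read in PFFs and had 317 reads in PEBs, 128 in ES-like cells, 67 in BL_2 and 5 in BL_1. The levels were 44.0 RPM in BL_1 (18.8 to 103), 24.1 in BL_2 (19.0 to 30.6), 20.1 in ES-like cells (16.9 to 23.9) and 20.0 in PEBs (17.9 to 22.3), all overlapping in RPM. The BL mean was more than 2-fold above ES-like cells and PEBs under some of the scalings given further on. The absence from PFFs was seen in the deepest library, where 0 reads allow a level of up to 0.111 RPM. Against that limit, miR-206 in RPM was at least 181-fold higher in ES-like cells and at least 180-fold higher in PEBs than in PFFs. Scaling lowered the bounds from the limit, to 65.2 and 107 with TMM and to 88.4 and 90.0 with DESeq2's size factors.

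miR-133b, the partner of miR-206, was read at most 46 times in any library. There were 46 reads in PFFs, 19 in PEBs, 22 in ES-like cells, 7 in BL_2 and 0 in BL_1. Per 1000000 this was 2.52 RPM in BL_2 (1.22 to 5.19), 3.45 in ES-like cells (2.28 to 5.23), 1.20 in PEBs (0.767 to 1.87) and 1.70 in PFFs (1.27 to 2.27). ES-like cells were higher than PEBs and, barely, than PFFs, and BL_2 overlapped all of them. miR-133b is known to differ from miR-133a-3p only at the last base, so reads that end before it cannot be assigned to either, and the way such reads were counted is not given in the sources used here.

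miR-208b was found in the ES-like cells and the bodies made from them. It had 27 reads in ES-like cells and 133 in PEBs, or 4.24 RPM (2.91 to 6.16) and 8.39 RPM (7.08 to 9.94). No read was found in BL_1, BL_2 or PFFs, with upper limits of 26.4, 1.08 and 0.111 RPM. The limit of BL_1 lay above the level of PEBs, so BL_1 does not bear on the comparison. Against the limit in PFFs, miR-208b in RPM was at least 38.2-fold higher in ES-like cells and at least 75.7-fold higher in PEBs. With TMM the bounds from the limit were 13.8 and 44.8, and with DESeq2's size factors 18.7 and 37.7.

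miR-499-5p, the main strand from MYH7B, was the most even member of those read in every library. There were 1847 reads in PFFs, 1338 in PEBs, 1324 in ES-like cells, 504 in BL_2 and 18 in BL_1. The levels were 158 RPM in BL_1 (100 to 250), 181 in BL_2 (166 to 198), 208 in ES-like cells (197 to 219), 84.4 in PEBs (80.0 to 89.1) and 68.2 in PFFs (65.2 to 71.4). The highest level was 3.05 times the lowest, against 12.7 times for miR-1 and 35.8 times for miR-133a-3p. PEBs and PFFs were lower than the other 3 libraries. BL_1 could not be told from ES-like cells (0.762 times, 0.450 to 1.21), and BL_2 was slightly lower in RPM (0.872 times, 0.785 to 0.967), a direction that turned with TMM and with DESeq2's size factors. In ES-like cells, miR-499-5p had more reads than miR-1. Its opposite strand, miR-499-3p, had 1 read in ES-like cells, 1 in PEBs, 2 in PFFs and none in BLs.

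**Figure D1:**
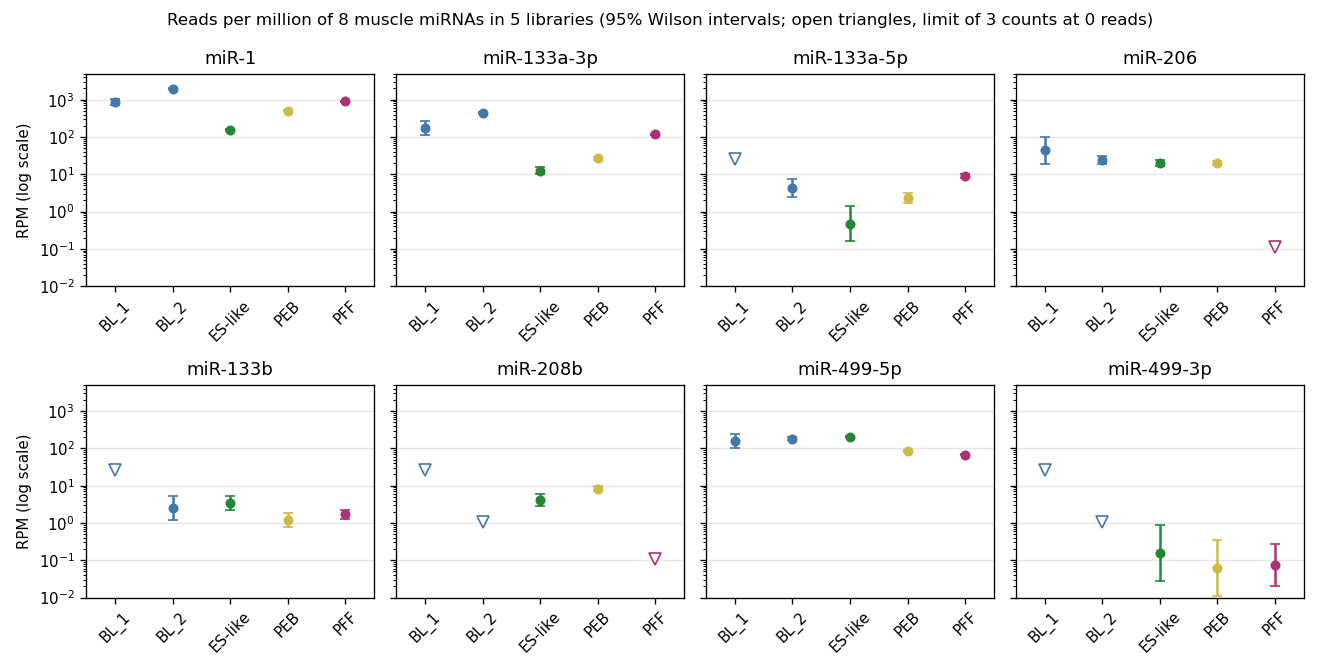
Level of each of the 8 muscle miRNAs (vertical axis, RPM on a log scale) in the 5 libraries (horizontal axis). Points are levels with 95% Wilson intervals, and open triangles mark the limit of 3 counts where a library had 0 reads. miR-1 and miR-133a-3p are lowest in ES-like cells, miR-206 has no read in PFFs and miR-208b is seen in ES-like cells and PEBs.

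The replicates BL_1 and BL_2 gave the only measure of spread between samples. Over 120 miRNAs with at least 10 reads in both, the median absolute difference was 1.37-fold, the SD of the log2 ratio was 0.77, and 18.3% differed by more than 2-fold. miR-1 was 2.31 times as high in BL_2 as in BL_1 (exact 95% counting interval 1.89 to 2.85) and miR-133a-3p 2.56 times (1.65 to 4.20), so both belonged to these 18.3%. miR-499-5p was 1.14 times as high (0.717 to 1.95). For miR-206 the ratio was 0.548 (0.223 to 1.74), from 5 reads in BL_1. The mean of BLs was 1411 ± 789 RPM for miR-1 (SD, n = 2), 313 ± 194 for miR-133a-3p, 170 ± 16.2 for miR-499-5p and 34.0 ± 14.1 for miR-206.

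**Figure D2:**
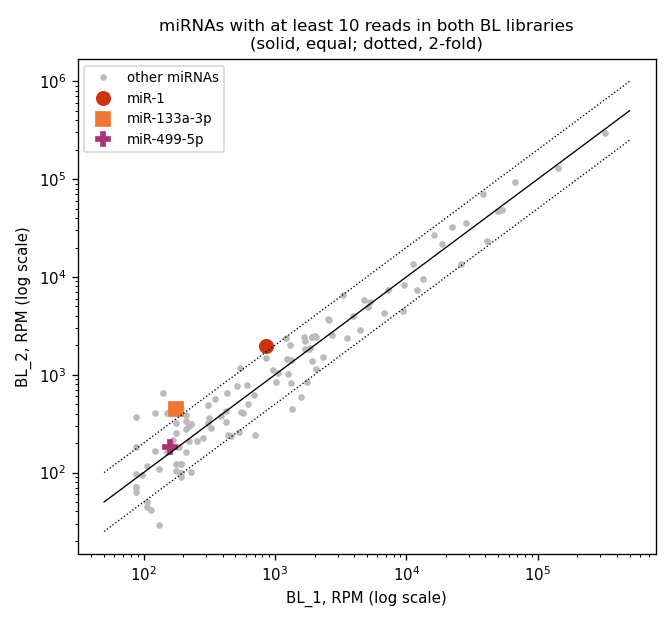
RPM in BL_2 (vertical axis) against BL_1 (horizontal axis), both on log scales, for the 120 miRNAs with at least 10 reads in both. The solid line marks equal levels and the dotted lines a 2-fold difference, and miR-1 and miR-133a-3p lie above the upper dotted line while miR-499-5p lies near the solid one.

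To ask how the cell types differed, the 2-fold rule of the study was applied to RPM for each of 6 pairs, BLs standing for the mean of their libraries. No p-value is given for these ratios. BLs exceeded ES-like cells 9.10-fold for miR-1 (5.50-fold in BL_1 and 12.7-fold in BL_2) and 24.9-fold for miR-133a-3p (14.0-fold and 35.8-fold). In both cases the smaller of the 2 ratios was larger than the difference between the BL libraries. miR-133a-3p stood in place 9 from the highest and miR-1 in place 19 among 219 miRNAs with at least 10 reads in both cell types. In all, 6 of the 8 members differed by more than 2-fold, as did 79.0% of the 319 miRNAs with a read, with 3 higher in BLs (25.4% of the 319) and 3 in ES-like cells (53.6%). miR-133b was among the latter through the 0 reads of BL_1, since BL_2 alone was within 2-fold of ES-like cells (0.729 times). Of these 6, miR-133a-5p, miR-133b, miR-208b and miR-499-3p had fewer than 10 reads in ES-like cells or BLs, and the 1 read of miR-499-3p in ES-like cells (0.157 RPM) was under the limit of BL_2. Over the 4 members with at least 10 reads in both, the median log2 ratio was 1.97, against -0.95 over all 219.

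Against PEBs, BLs were 2.81-fold higher for miR-1 (1.70-fold in BL_1, 3.91-fold in BL_2), 11.8-fold higher for miR-133a-3p (6.60-fold, 16.9-fold) and 2.01-fold higher for miR-499-5p (1.87-fold, 2.15-fold). The last was within 2-fold with TMM (1.94) and with the largest precursor row (1.83). For miR-1 the lower ratio was within the spread of the BL libraries. These 3 of 8 members compare with 27.6% of all miRNAs, and 2 members, miR-208b and miR-499-3p, were past 2-fold in PEBs by the rule (52.7% of all). Neither had a read in BLs, and the single read of miR-499-3p in PEBs (0.0631 RPM) was under the limit of 1.08 RPM in BL_2, so no difference was detectable for it at this depth. Either way this was 5 of 8 members and 80.3% of all miRNAs. Against PFFs, BLs were 1.57-fold higher for miR-1, with BL_1 at 0.949 and BL_2 at 2.19 times the level of PFFs, which did not exceed the spread. For miR-133a-3p the ratio was 2.63 (1.48 and 3.79), and that of BL_1 had a counting interval of 0.902 to 2.29. miR-499-5p was 2.49 times as high in BLs as in PFFs (2.32 and 2.66), a difference that was within 2-fold under each of the 3 other scalings given further on. With miR-206, 3 of the 7 members with a read were more than 2-fold higher in BLs (36.5% of all) and 2 in PFFs (41.2% of all), of which miR-499-3p had 2 reads, or 5 of 7 either way (77.7% of all).

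PEBs were compared with the ES-like cells from which they formed. miR-1 was 3.24 times as high in PEBs (3.04 to 3.47), miR-133a-3p 2.12 times (1.67 to 2.73) and miR-133a-5p 4.96 times (1.57 to 25.1). The last ratio rests on 3 reads in ES-like cells. miR-208b was 1.98 times as high in PEBs (1.30 to 3.12), just under the threshold. miR-206 was level, at 0.996 times (0.808 to 1.23). In the other direction, miR-499-5p was 2.46 times (2.28 to 2.66) and miR-133b 2.88 times (1.49 to 5.63) as high in ES-like cells. Thus 3 of 8 members were more than 2-fold higher in PEBs (21.0% of all miRNAs) and 3 in ES-like cells (26.8% of all), 6 either way (47.8% of all), the last being miR-499-3p with 1 read on each side. The ratio of miR-1 was in place 19 of 272 counted from the most PEB-biased miRNA, and that of miR-133a-3p in place 48. Between the BL replicates, 18.3% of miRNAs differed by more than 2-fold.

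PFFs were compared with the ES-like cells next. miR-1 was 5.79 times (5.44 to 6.18), miR-133a-3p 9.47 times (7.58 to 12.0) and miR-133a-5p 19.3 times (6.53 to 94.2) as high in PFFs. Counted from the most PFF-biased of 261 miRNAs, miR-133a-3p was in place 4 and miR-1 in place 11. miR-206 and miR-208b were without a read in PFFs, and miR-499-5p was 3.05 times (2.84 to 3.27) and miR-133b 2.03 times (1.16 to 3.45) as high in ES-like cells. With miR-499-3p this made 5 of 8 members higher in ES-like cells (51.4% of all miRNAs) and 3 in PFFs (19.2% of all), which is 8 of 8 past the rule in RPM (70.6% of all). For miR-499-3p this was 1 read in ES-like cells against 2 in PFFs, a ratio of 2.12 with an interval of 0.0360 to 40.8. With TMM and with DESeq2's size factors the count was 5, and miR-133b reversed with both and miR-499-3p with TMM. Over all 261 miRNAs the median log2 ratio of ES-like cells to PFFs was 1.10, and ssc-miR-21 alone held 52.3% of the reads of PFFs. Between PFFs and PEBs, miR-1 differed 1.79-fold (1.74 to 1.83), miR-133a-3p 4.46-fold (4.03 to 4.95) and miR-133a-5p 3.89-fold (2.75 to 5.66), all higher in PFFs, and miR-499-5p 1.24-fold (1.15 to 1.33), higher in PEBs. That made 2 of 8 members more than 2-fold higher in PFFs (19.2% of all) and 2, miR-206 and miR-208b, in PEBs (43.3% of all), or 4 of 8 either way (62.5% of all).

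**Figure D3:**
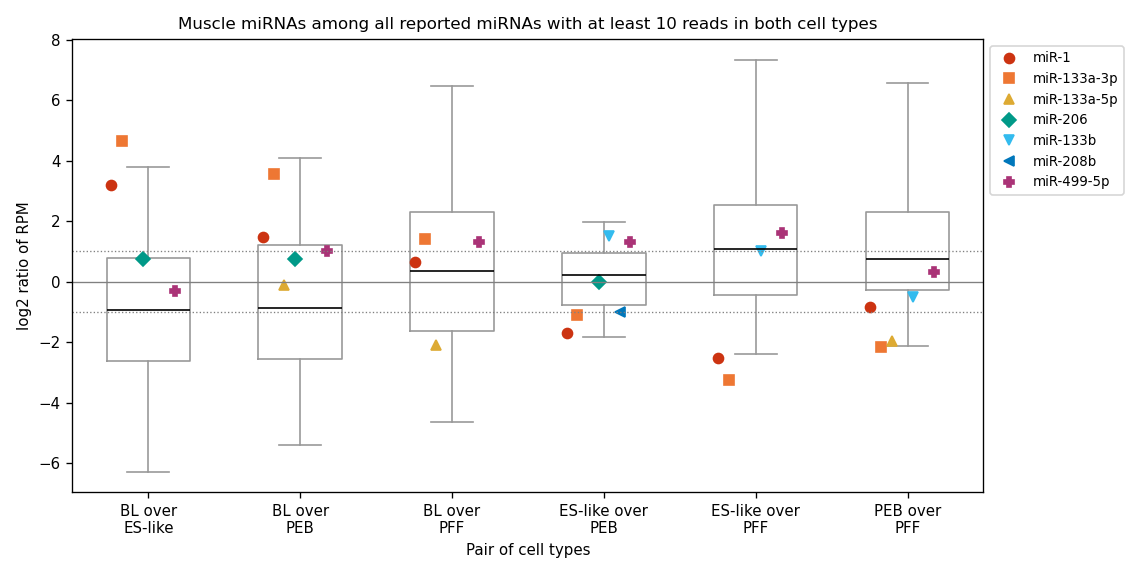
Log2 ratio of RPM (vertical axis) for 6 pairs of cell types (horizontal axis), with BLs as the mean of their libraries. Boxes show the quartiles and whiskers the 5th to 95th percentile of all miRNAs with at least 10 reads in both cell types (in BLs, in at least 1 library), coloured points the muscle miRNAs, and dotted lines a 2-fold difference. miR-133a-3p lies beyond the whisker in BLs over ES-like cells, and miR-1 and miR-133a-3p lie below it in ES-like cells over PFFs.

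Scaling changed some of these ratios. Relative to RPM, the TMM factors of edgeR moved the median log2 ratio of ES-like cells to PFFs by -1.47 and the size factors of DESeq2 by -1.04. The remaining scaling left ssc-miR-371-5p, ssc-miR-148a-3p and ssc-miR-21, the most abundant miRNAs of the libraries, out of the totals (reduced totals). ES-like cells had the lowest miR-1 and miR-133a-3p, and BL_2 the highest, under RPM and each of these 3 scalings. With TMM, PFFs exceeded ES-like cells 16.1-fold for miR-1 and 26.3-fold for miR-133a-3p. miR-499-5p in PFFs stood at 0.913 times its level in ES-like cells with TMM, 0.673 with DESeq2's factors and 0.487 with reduced totals, so that it was past 2-fold with the last alone. miR-133b changed direction with TMM, to 1.37 times as high in PFFs.

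Between PEBs and ES-like cells, TMM gave 5.33-fold for miR-1, 3.49-fold for miR-133a-3p and 3.25-fold for miR-208b, and DESeq2's factors 3.31, 2.17 and 2.02. With reduced totals, miR-1 was 2.96 times, miR-133a-3p 1.93 times and miR-208b 1.81 times as high in PEBs, the last 2 below 2-fold. miR-206 was no longer level with TMM, at 1.64 times as high in PEBs, against 1.02 with DESeq2's factors and 0.908 with reduced totals. miR-499-5p and miR-133b stayed lower in PEBs, at 0.668 and 0.571 times with TMM, within 2-fold. Between PFFs and PEBs, miR-1 was past 2-fold under all 3, at 3.02 times with TMM, 3.58 with DESeq2's factors and 2.91 with reduced totals. miR-133b also passed, at 2.40, 2.84 and 2.31 times as high in PFFs, against 1.42 in RPM. miR-499-5p turned, to 1.37, 1.62 and 1.32 times as high in PFFs.

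BLs against PFFs depended on the scaling for each of the 3 most abundant members. miR-1 was 0.906 times as high in BLs with TMM, 1.16 with DESeq2's factors and 1.20 with reduced totals. miR-133a-3p was 1.52, 1.95 and 2.01 times as high, and miR-499-5p 1.42, 1.87 and 1.89 times. Against ES-like cells, miR-499-5p in BLs was 1.30 times as high with TMM and 1.26 with DESeq2's factors, against 0.921 with reduced totals. For miR-1 this ratio was 14.6, 13.8 and 10.3 in the same order, and for miR-133a-3p 40.0, 37.8 and 28.2. miR-206 was 2.66, 2.66 and 1.90 times as high in BLs as in ES-like cells, against 1.69 in RPM. Over PEBs, miR-206 was 1.63, 2.61 and 2.10 times as high in BLs, against 1.70 in RPM, with 5 reads in BL_1.

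**Figure D4:**
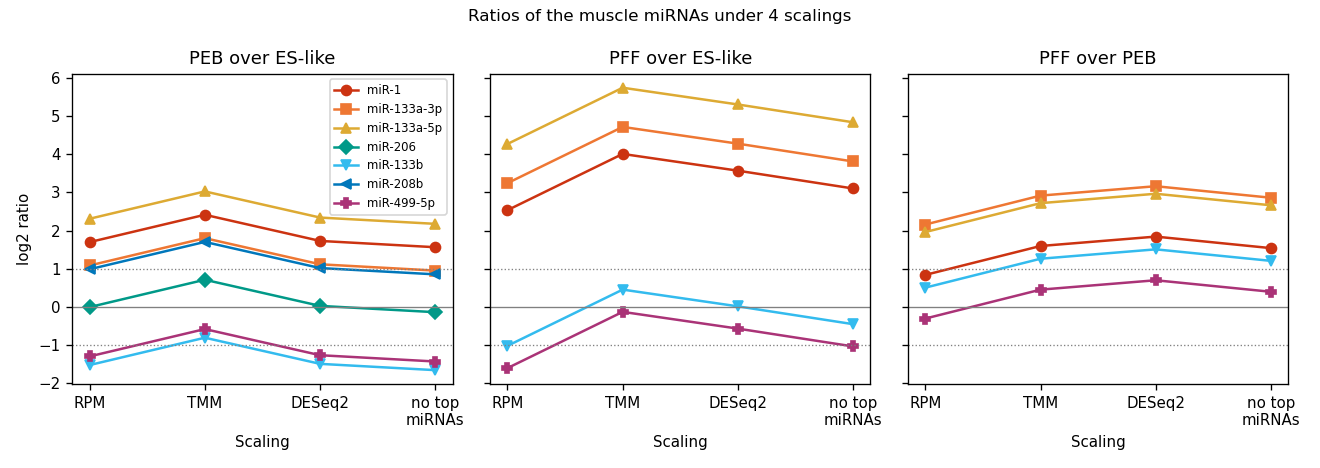
Log2 ratio (vertical axis) of each muscle miRNA with reads in both cell types, except miR-499-3p, under RPM, TMM, DESeq2's size factors and totals without the most abundant miRNAs (horizontal axis). Dotted lines mark 2-fold. The panels show PEBs over ES-like cells, PFFs over ES-like cells and PFFs over PEBs, in which miR-1 and miR-133a-3p stay above 0, while miR-133b crosses 0 in PFFs over ES-like cells and miR-499-5p crosses it in PFFs over PEBs.

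Ratios of 2 miRNAs within a library need no scaling between libraries. miR-1 had 4.85 times the reads of miR-133a-3p in BL_1 (exact 95% interval 2.97 to 8.29) and 4.37 times in BL_2 (4.11 to 4.65). The ratio was 7.56 in PFFs (7.28 to 7.84), 12.4 in ES-like cells (9.83 to 15.7) and 18.9 in PEBs (17.1 to 20.9). The BL replicates overlapped each other and, for BL_1, also PFFs, while PEBs lay above the other 4 libraries. Counting 1 precursor row of miR-133a-3p doubles each ratio and leaves their order as it is. The intervals are then wider, and those of ES-like cells (24.7, 18.0 to 34.8) and PEBs (37.8, 32.9 to 43.5) overlapped. miR-1 had 7.72 times the reads of miR-206 in ES-like cells (6.41 to 9.35), 25.1 times in PEBs (22.5 to 28.2) and 81.7 times in BL_2 (64.3 to 106). In PFFs it had at least 8107 times by the limit of 3 counts, with an exact interval from 6593. BL_1 had 97 reads of miR-1 against 5 of miR-206, a lower ratio than in BL_2 and also than in PEBs. With so few reads of miR-206 in BL_1, the order of BLs and PEBs is not settled. miR-206 had more reads than its neighbour miR-133b in BL_2 (9.57 times, 4.40 to 24.7), ES-like cells (5.82 times, 3.68 to 9.61) and PEBs (16.7 times, 10.5 to 28.1). In PFFs the order was the reverse, with at least 15.3 times as many reads of miR-133b as of miR-206 by that limit. The exact interval of miR-206 to miR-133b there reached up to 0.0835. miR-133a-3p had 3.64 times the reads of miR-133b in ES-like cells (2.25 to 6.12), 22.2 times in PEBs (14.0 to 37.3), 70.0 times in PFFs (52.3 to 95.7) and 179 times in BL_2 (86.6 to 446), ratios that 1 precursor row of miR-133a-3p divides by 2. miR-499-5p had 49.0 times the reads of miR-208b in ES-like cells (33.5 to 74.7) and 10.1 times in PEBs (8.41 to 12.1), intervals that did not overlap. In BL_2 and PFFs, which had no read of miR-208b, the ratio was at least 168 and at least 616 by the limit (exact intervals from 136 and 500).

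**Figure D5:**
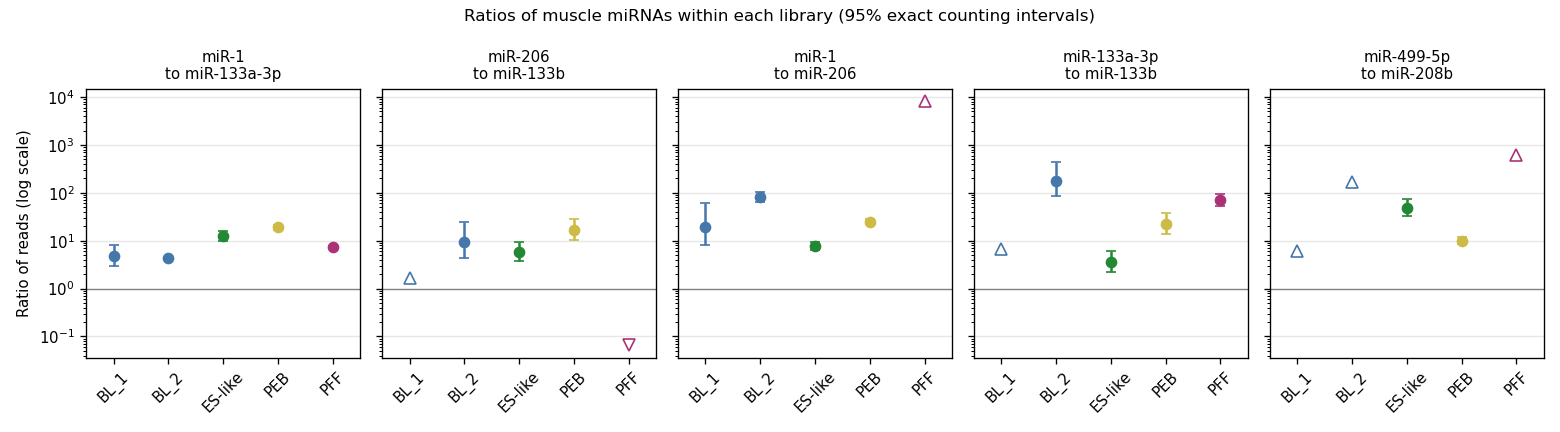
Ratio of the reads of 2 muscle miRNAs within each library (vertical axis, log scale) for 5 pairs of miRNAs (panels) and 5 libraries (horizontal axis). Bars are exact 95% counting intervals, and open triangles are lower bounds (pointing up) or an upper bound (pointing down) from the limit of 3 counts. The ratio of miR-1 to miR-133a-3p is highest in PEBs, and miR-206 lies below miR-133b in PFFs and in no other library.

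The share of reads on the minor strand of miR-133a differed between libraries. miR-133a-5p made up 0.949% of the reads of both strands in BL_2 (95% Wilson interval 0.544 to 1.65%), 3.61% in ES-like cells (1.24 to 10.1%), 8.06% in PEBs (5.90 to 10.9%) and 7.10% in PFFs (6.29 to 8.01%). The interval of BL_2 lay below those of PEBs and PFFs. In BL_1 the 20 reads of both strands allow a share of up to 15.0%, so it cannot be placed. With the larger precursor row alone, the shares were 0.949% in BL_2, 9.44% in PEBs and 8.37% in PFFs. The minor strand of miR-499 stayed at 0.0755% in ES-like cells (0.0133 to 0.426%), 0.0747% in PEBs (0.0132 to 0.422%) and 0.108% in PFFs (0.0297 to 0.394%), and at up to 0.595% in BL_2, where it had 0 of 504 reads.

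Under the rule of a level more than 2 times that in each other cell type, miR-133a-3p was listed for BLs (18.7% of the 327 detected miRNAs were listed there), miR-133b and miR-499-3p for ES-like cells (12.5%), none of the 8 for PEBs (7.34%) and miR-133a-5p for PFFs (7.95%). miR-499-5p was listed for BLs and ES-like cells together over PEBs and PFFs (6.73%), and none for PEBs and PFFs together (3.98%). Most of these entries depended on the scaling. With TMM, DESeq2's size factors, reduced totals, the largest precursor row or without BL_2, no member was on the list of BLs and ES-like cells. miR-133a-3p left the BL list with TMM, with DESeq2's factors and without BL_2, and miR-206 took its place in the last 2 of these. The ES-like list was empty under all 3 other scalings, and miR-208b entered the PEB list with TMM, DESeq2's factors and the largest precursor row. miR-133a-5p was on the PFF list under all 4 scalings. miR-1 was in no list, since the BL mean was 1.57 times the level of PFFs, and joined the BL list without BL_1. The entries of miR-133b and miR-499-3p rest on 22 reads and 1 read in ES-like cells.

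Pluripotent libraries (both BLs and ES-like cells, n = 3) were also tested against differentiated ones (PEBs and PFFs, n = 2) by the quasi-likelihood test of edgeR on 279 miRNAs, of which 0.0% had an adjusted p under 0.05. 6 members were tested, and miR-208b and miR-499-3p were left out because fewer than 3 libraries held over 5 reads of them. No member passed, and none had an unadjusted p under 0.05, which 29 of the 279 had. DESeq2 called 5.02% of the 279 and limma 0, with no member among them. The log2 change was 0.13 for miR-1 (standard error 1.38, edgeR adjusted p = 0.988), with ES-like cells below and BL_2 above both differentiated libraries. It was 1.07 for miR-133a-3p (standard error 1.74, adjusted p = 0.853), -1.95 for miR-133a-5p (1.70, adjusted p = 0.715), 1.56 for miR-206 (2.16, adjusted p = 0.836), 0.19 for miR-133b (1.33, adjusted p = 0.988) and 0.79 for miR-499-5p (0.96, adjusted p = 0.803). miR-499-5p was higher in 3 of 3 pluripotent libraries than in both others. Each side pools cell types, and a simulated log2 change of 4 at the dispersion of these libraries was recovered for 0 of 50 miRNAs, so a result below the threshold does not show that levels were alike.

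The miRNAs most like each member were found by Pearson's r of log2(RPM + 10) over the 5 libraries, among 273 miRNAs with at least 10 reads in at least 3 libraries. With 5 points of unequal depth, r is a description only. For miR-1 the first was miR-133a-3p (r = 0.944), followed by ssc-miR-221-5p (0.926) and ssc-miR-365-5p (0.850). For miR-133a-3p these were ssc-miR-221-5p (0.956), miR-1 (0.944) and ssc-miR-28-3p (0.937). The genomic neighbours miR-206 and miR-133b had an r of -0.30, and the strands miR-133a-3p and miR-133a-5p one of 0.35. miR-133b, miR-133a-5p and miR-208b reached at most 3.45, 9.09 and 8.39 RPM, all below the 10 RPM added. Each had 0 reads in BL_1, which allows up to 26.4 RPM. An r that involves any of these cannot show whether neighbours or strands go together. miR-206 went most with ssc-miR-30c-1-3p (0.988), ssc-miR-1343 (0.983) and ssc-miR-128 (0.965), and miR-208b with ssc-miR-376c (0.991), ssc-miR-142-3p (0.979) and ssc-miR-376a-5p (0.978). miR-499-5p went most with ssc-miR-423-3p (0.894), ssc-miR-362 (0.885) and ssc-miR-191 (0.884), miR-133b with ssc-miR-491 (0.966), ssc-miR-532-3p (0.898) and ssc-miR-374b-5p (0.878), and miR-133a-5p with ssc-miR-365-3p (0.924), ssc-miR-193a-3p (0.904) and ssc-miR-758 (0.879). miR-208b and miR-1 had an r of -0.64.

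A list of 22 other miRNAs known from muscle, many of them also abundant in fibroblasts, was set beside the members. Of these, 8 were more than 2-fold higher in PEBs than in ES-like cells (21.0% of all miRNAs) and 1 was lower (26.8% of all), and the median log2 ratio was 0.87 against -0.22 over all 272 miRNAs. In PFFs against ES-like cells, 8 were higher (19.2% of all) and 5 lower (51.4% of all), with a median of 0.68 against -1.10 over all 261. Most of the list was lower in BLs, which against ES-like cells was close to the share over all miRNAs. Against ES-like cells, 5 were higher and 13 lower in BLs (25.4% and 53.6% of all), with a median log2 ratio of -1.46 against -0.95. Against PEBs these were 4 and 15 (27.6% and 52.7% of all), with a median of -2.54 against -0.86, and against PFFs 4 and 15 (36.5% and 41.2% of all), with -2.73 against 0.35. Against ES-like cells, the highest ratio of the list was 3.97 for ssc-miR-181b in PEBs and 8.40 for ssc-miR-145-5p, a smooth muscle miRNA, in PFFs, and the lowest in both was that of ssc-miR-489, with no read in PEBs or PFFs and 1 in ES-like cells. edgeR tested 21 of the 22 between pluripotent and differentiated libraries, with 0 at an adjusted p under 0.05 and 7 at an unadjusted p under 0.05, which 29 of all 279 had. The fitted change was higher in pluripotent libraries for 4 of the 21.

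Markers of other cell types were set beside the members. Blood cell miRNAs (5 of 6 listed were in the table) summed to 87.4 RPM in PEBs and 55.7 in ES-like cells against 1.96 in PFFs. miR-208b had the same order of these libraries. miR-206 shared only the low level in PFFs, as it was level between PEBs and ES-like cells and highest in BLs. ssc-miR-142-5p led the blood cell miRNAs in PEBs, ssc-miR-144 in ES-like cells, ssc-miR-142-3p in PFFs and ssc-miR-150 in BLs, where the sums were 17.6 and 48.9 RPM and ssc-miR-142-3p had no read. Neural miRNAs were at 3651 RPM in PEBs, 1171 in ES-like cells, 424 in PFFs and 2172 and 2756 in BL_1 and BL_2, led by ssc-miR-9 except in PFFs, where ssc-miR-129a-5p led and ssc-miR-124a had no read. ssc-miR-9 had 53454 reads in PEBs over its precursor rows, against 17818 in the largest row. The neural sums are too high if the same reads were counted at each row. The 2 epithelial miRNAs in the table of 7 listed, led by ssc-miR-205 in BLs and PFFs and by ssc-miR-429 in ES-like cells and PEBs, were at 4748 and 5777 RPM in BLs, 0.776 in PFFs, 789 in PEBs and 1220 in ES-like cells. The endothelial pair, led by ssc-miR-126-3p, was at 106 and 44.6 RPM in BLs, 166 in PFFs, 300 in PEBs and 1342 in ES-like cells. The part of these cells, or of the mouse feeder cells, in the levels of the muscle miRNAs was not tested.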

How the data were processed

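Cell types of the 5 small RNA libraries were taken from the labels. The authors trimmed adapters with Cutadapt 1.10, discarding short and adapter-free reads, aligned with Bowtie 1.1.1 to the pig genome (Sscrofa10.2, per the labels), quantified reads with SAMtools 1.2 and HTSeq 0.6.1p1, and sorted them into miRBase and predicted miRNAs with miRDeep2. The deposited values are raw read counts, one column per library. How reads that match several precursors were counted is not given in the sources used here. The separate table of predicted loci names no miRNA and was not used here.

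Counts were summed over precursor rows and divided by the library total (RPM). Shares have 95% Wilson intervals, ratios exact conditional binomial intervals, and 0 reads a limit of 3 counts. The 2-fold rule used the mean of BL_1 and BL_2. The edgeR 4.0.16 quasi-likelihood test (TMM, more than 5 reads in at least 3 libraries, Benjamini-Hochberg adjustment, threshold 0.05) ran in R 4.3.3, with DESeq2 1.42.0 and limma 3.58.1 (voom) as alternatives. In a test on simulated data (279 miRNAs, a log2 change of 4 in 50), this step recovered 48 with 2 false calls at a dispersion of 0.05, and 0 at 1.25, that of these libraries. The 2 BL libraries were separate pools, and each side of that test mixed cell types (BLs with ES-like cells, PEBs with PFFs). The spread behind its p-values therefore joins differences between replicates with differences between cell types.

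All members were named. Of the other miRNAs, those named are the 3 most alike to each member with at least 10 reads in at least 2 libraries, the extremes of the muscle list in PEBs and PFFs against ES-like cells, and the leading miRNA of each marker list. ssc-miR-148a-3p (most abundant in ES-like cells) and the markers named as without a read were added after their values were seen. Members and lists were chosen with earlier results of these data known. Python 3.11.15, numpy 2.4.6, pandas 2.3.3, scipy 1.17.1 and matplotlib 3.10.9 were used.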

Additional observations from a re-analysis of the deposited data

How the results depend on the processing

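Of 24 ratios of members past 2-fold, 128 of 183 values under the alternatives stayed past it and 55 fell within it, of which 3 changed direction. These 3 were the log2 ratios of ES-like cells over PFFs of ssc-miR-133b, -0.45 with TMM and -0.013 with DESeq2's size factors, and of ssc-miR-499-3p, -0.39 with TMM. By construction, pseudocounts shrink ratios of miRNAs with few reads, and 0 reads in BL_1 allow a level of up to 26.4 RPM. No paired analysis was possible because 3 of the 4 cell types had 1 library.

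The number of members past the threshold was 6 for BLs against ES-like cells, and 2 with a pseudocount of 10 RPM and 2 with 100 RPM. For BLs against PEBs it was 5, and 2 with either pseudocount and 3 at 4-fold. For BLs against PFFs it was 5, and 3 with DESeq2's size factors, 3 with the pseudocount of 10 RPM, 0 with 100 RPM and 3 at 4-fold. For ES-like cells against PEBs it was 6, and 2 and 1 with the pseudocounts and 1 at 4-fold. For ES-like cells against PFFs it was 8, and 5 with TMM, 5 with DESeq2's size factors, 4 and 1 with the pseudocounts and 5 at 4-fold. For PEBs against PFFs it was 4, and 7 with DESeq2's size factors and 2 and 0 with the pseudocounts. With TMM and with reduced totals, ssc-miR-1 (3.02 and 2.91 times as high in PFFs) and ssc-miR-133b (2.40 and 2.31 times) were also past 2-fold in this pair. Leaving out BL_1 or BL_2, counting the largest precursor row, a minimum of 10 reads and leaving the most abundant miRNAs out of the totals kept each of these counts within 1.5 times.

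In the lists of the 2-fold rule, the BL list had 1 member (another one, ssc-miR-206, with DESeq2's size factors and without BL_2), and 0 with TMM, with the pseudocount of 100 RPM and at 4-fold, and from 1 to 2 when a BL library was left out (2 without BL_1, ssc-miR-1 and ssc-miR-133a-3p). The ES-like list had 2, and 0 with TMM, DESeq2's size factors, reduced totals, either pseudocount and 4-fold, 1 with a minimum of 10 reads, and from 1 to 2 when a BL library was left out (1 without BL_1). The PEB list had 0, and 1 with TMM, DESeq2's size factors and the largest precursor row. The PFF list had 1, and 0 with either pseudocount and at 4-fold. The list of BLs and ES-like cells had 1, and 0 with TMM, DESeq2's size factors, reduced totals, either pseudocount, the largest precursor row and 4-fold, and from 0 to 1 when a BL library was left out (0 without BL_2). The list of PEBs and PFFs had 0, and from 0 to 1 when a BL library was left out (1 without BL_2).

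DESeq2 called 14 miRNAs between pluripotent and differentiated libraries and edgeR 0, and from 0 to 16 when 1 library was left out (16 without ES-like cells, where the remaining pluripotent libraries are the BL replicates). No member was among them in any setting. The log2 change of ssc-miR-1 was -0.091 without a filter, -0.72 with limma and from -0.89 (without BL_2) to 1.76 (without PFFs) when 1 library was left out, and -0.46 without PEBs. That of ssc-miR-133a-3p was -0.32 with limma and from -0.19 (without BL_2) to 3.82 (without PFFs). That of ssc-miR-133b was -0.038 without a filter and from -0.27 (without PEBs) to 1.58 (without PFFs). That of ssc-miR-206 was 4.85 with limma, 1.99 with DESeq2's size factors in edgeR, 0.95 without PFFs and 1.78 without BL_1. A side left with 1 library is assumed to vary like the other. The cause of these changes was not tested.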
